A study of Mus musculus with 6 samples.

Results

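The genes described here are 43 genes of DNA replication and S phase, the part of the cell cycle in which the genome is copied. They were chosen by name from textbook roles, with earlier results of these data known, out of 36629 genes in the deposited tables. All 43 were found and tested. The libraries were bulk RNA-seq of C57/BL6 mouse spinal cord, and the question was how injured cord differs from uninjured cord 3 days after surgery. In the SCI (spinal cord injury) group, the cord of mice aged 3 to 5 weeks was exposed by removal of the vertebral roof at T9 and T10 and crushed for 5 s with a vascular clip of 60 g force. In the sham group, which the labels call untreated, mice of the same strain and age had the exposure alone. Segments T8 to T12 were taken from both, with 3 libraries per group. A piece of cord holds many cell types, and blood, meninges and nerve root can come with it. The labels do not say whether each library is 1 animal, so p-values measure the spread between these libraries.

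Before a cell copies its DNA, the origin recognition complex, Cdc6 and Cdt1 load the ring-shaped Mcm2 to Mcm7 helicase onto origins, a step called licensing, and geminin (Gmnn) later holds Cdt1 back. Cdc45 and the GINS complex then switch the helicase on, polymerases copy both strands on the sliding clamp Pcna, Okazaki fragments are joined, and nucleotide synthesis and histone supply keep pace. Many of these genes are transcribed under E2F factors, which pocket proteins of the retinoblastoma family restrain in resting cells. Most cells of the uninjured cord are known to be at rest after early life, while microglia, astrocytes, oligodendrocyte precursors and cells of the vessels and meninges are known to proliferate after injury.

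Because E2F sites are the best known shared element of these genes, promoter windows of 5 members are shown, taken from RefSeq on GRCm38.p6 and chosen after the values were seen. Each runs from 170 bases before to 30 after the annotated start, 5′ to 3′ on the gene's strand. Capitals mark matches to the E2F letters searched on both strands, TTTCCCGC, TTTCGCGC, TTTGCCGC or TTTGGCGC. Mcm3 (chr1:20820283-20820482, minus strand), Mcm5 (chr8:75109339-75109538, plus strand) and Mcm6 (chr1:128359676-128359875, minus strand) were the helicase subunits with the largest rises and hold such letters. Rrm2 (chr12:24708084-24708283, plus strand) had the largest log2 change of all members, and Ccne1 (chr7:38107461-38107660, minus strand) was among the 3 that did not pass the test. Neither window holds these letters.
Mcm3: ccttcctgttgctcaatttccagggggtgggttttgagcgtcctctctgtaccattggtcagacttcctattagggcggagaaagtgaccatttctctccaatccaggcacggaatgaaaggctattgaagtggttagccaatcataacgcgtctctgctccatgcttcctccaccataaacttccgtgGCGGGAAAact
Mcm5: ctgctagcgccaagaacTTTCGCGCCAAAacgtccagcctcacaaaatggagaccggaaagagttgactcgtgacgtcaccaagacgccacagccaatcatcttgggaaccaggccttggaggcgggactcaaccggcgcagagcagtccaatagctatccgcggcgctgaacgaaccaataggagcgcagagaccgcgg
Mcm6: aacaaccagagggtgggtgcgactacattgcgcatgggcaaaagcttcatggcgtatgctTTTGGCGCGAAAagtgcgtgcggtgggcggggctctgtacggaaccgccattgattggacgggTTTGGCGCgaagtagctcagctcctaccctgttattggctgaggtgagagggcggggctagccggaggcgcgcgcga
Rrm2: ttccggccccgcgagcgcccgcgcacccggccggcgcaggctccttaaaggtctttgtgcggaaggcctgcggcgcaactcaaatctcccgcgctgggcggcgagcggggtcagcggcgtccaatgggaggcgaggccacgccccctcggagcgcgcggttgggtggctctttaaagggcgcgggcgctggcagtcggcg
Ccne1: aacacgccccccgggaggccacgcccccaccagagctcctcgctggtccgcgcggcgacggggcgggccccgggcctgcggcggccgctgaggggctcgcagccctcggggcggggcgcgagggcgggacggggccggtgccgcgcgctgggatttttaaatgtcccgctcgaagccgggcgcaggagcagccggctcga

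Mcm5 has overlapping matches on opposite strands in 1 place, and Mcm6 has 2 places. Over the full windows of the table, 250 bases before to 50 after the start, 36 of the 43 members had an entry, and 14 of them (38.9%, Wilson 95% interval 24.8 to 55.1%) held the E2F letters. Of the 27025 genes with a window, 704 (2.6%) held them, and of the 11873 genes with a window that were also tested here 522 (4.4%) did. Of the 9 licensing genes with a window, 7 held them: Orc1, Cdc6, Cdt1, Mcm3, Mcm5, Mcm6 and Mcm7. The other 7 were Pola1, Pold1, Rfc3, Lig1, Uhrf1, Dnmt1 and E2f2. The CCAAT box, the letters CCAAT on either strand, was in 23 members (63.9%) and in 41.1% of all genes. The CHR element of genes expressed late in the cycle, searched as TTTGAA or TTCGAA, was in 8 members (22.2%) and in 21.7% of all genes. Median GC content was 61.6% for the members' windows, 60.7% for genes tested and 52.8% for all genes. The members were chosen by name and not at random, so the interval of 24.8 to 55.1% measures no sampling spread. No share was tested against another.

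The changes of members with and without the letters overlapped. The 14 members with E2F letters had log2 changes of 0.79 to 3.88 with a median of 1.67, and the 22 without had 0.02 to 4.48 with a median of 1.45. Outside the members, 508 tested genes held the letters, and 166 of them (32.7%) were called higher in SCI, with a median log2 change of 0.0. Of all genes tested, members and genes without a window included, 26.7% were called higher. Tested genes with a window but without the letters, members included, had a median of -0.09. These sets are not matched to the 508 genes, and the difference was not tested. A match is a run of letters and not a measured binding site, and a missing match says only that these letters are not in the window.

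In injured cord, 40 of the 43 genes were higher than in sham, and none was lower. The test was limma on log2(FPKM + 1) with Benjamini-Hochberg adjustment over all 17435 genes tested, with an adjusted p under 0.05 as the threshold. FPKM divides a gene's fragments by its length and by the size of the library, so levels of different genes can be set side by side. A log2 change is SCI minus sham on that scale, which understates low genes, and a fold is the ratio of the mean FPKM. Of all genes tested, 26.7% were called higher and 30.8% lower. None of the 43 log2 changes was negative, so the count lower at an unadjusted p under 0.05 was also 0. A log2 change of at least 1 was reached by 31 members, against 11.0% of all genes. All 3 SCI libraries lay above all 3 sham libraries for 41 members, against 30.7% of all genes. For 6 of these 41, named in the next paragraph, the filter fixed this order in advance. All 6 are also among the 31. The median log2 change was 1.51 for the members and -0.08 for all genes.

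Some of these genes could only pass the filter because they were high after injury. Orc1, Cdc6, Mcm10, Uhrf1, Chaf1b and E2f8 were under 1 FPKM in every sham library, so they passed the requirement of 1 FPKM in 3 of 6 libraries through SCI alone. Of the other 37 members, 34 were higher and 3 did not pass, with a median log2 change of 1.42. With a pseudocount of 0.1 in place of 1, the log2 changes were 2.06 for Orc1, 3.76 for Cdc6, 2.41 for Mcm10, 3.73 for Chaf1b and 4.39 for E2f8, each over 1.5 times the values given below. In bulk tissue, more cells that express a gene and more RNA of it per cell cannot be told apart.

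**Figure D1:**
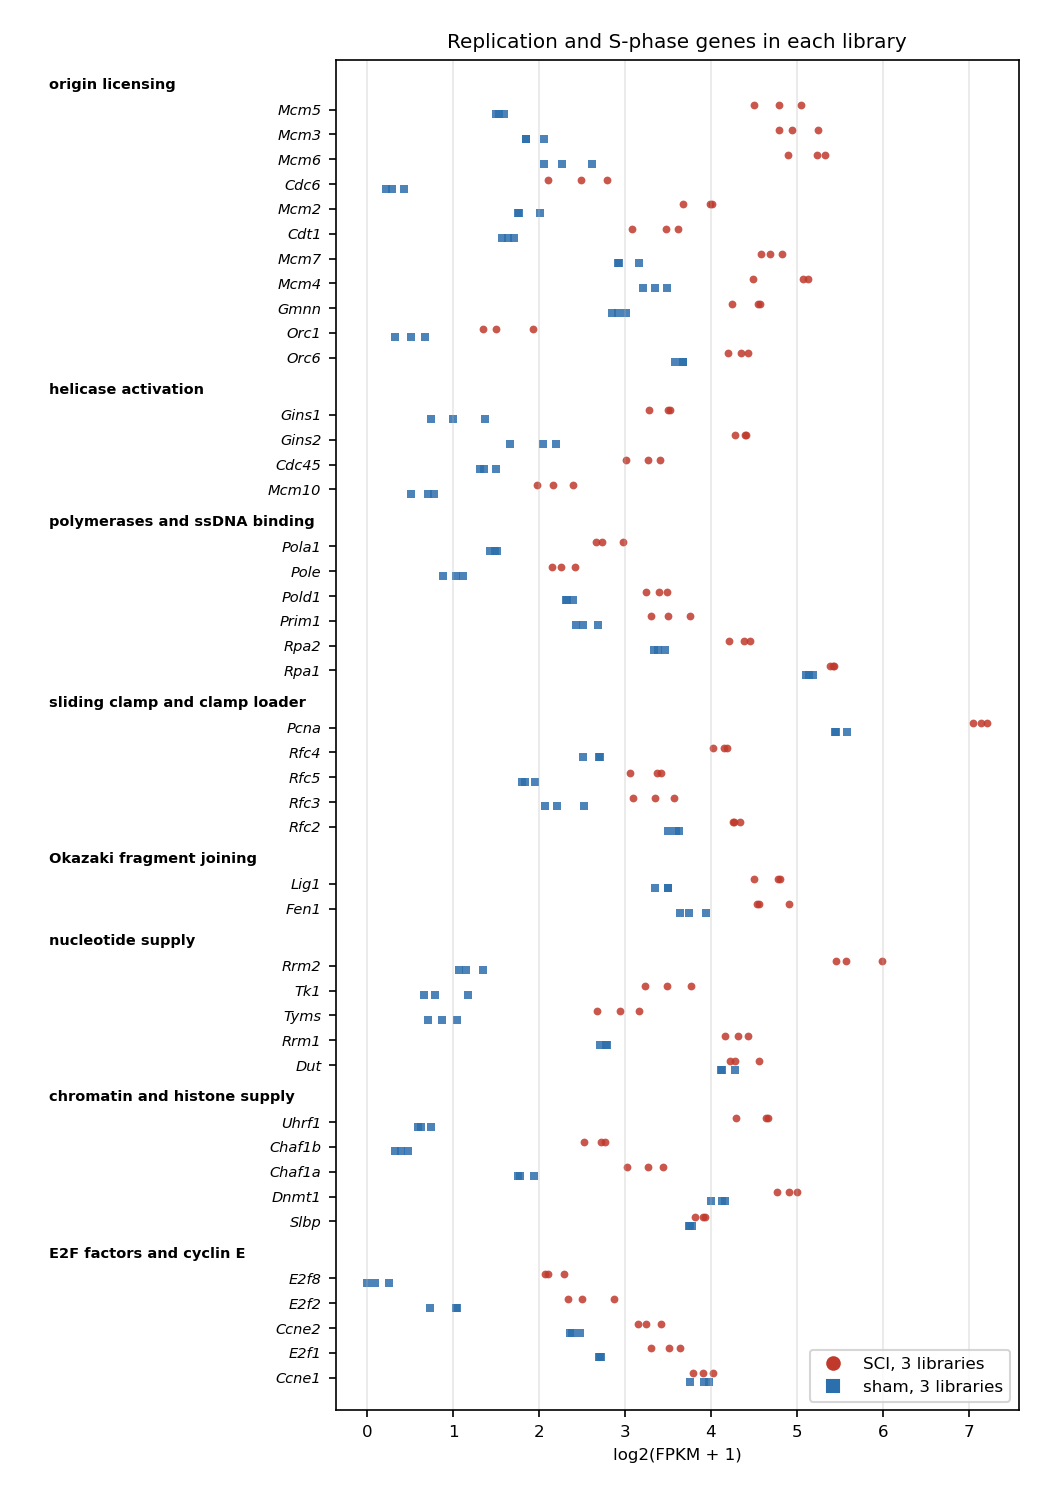
Level of each of the 43 genes in every library, as log2(FPKM + 1), grouped by role and ordered within each role by the size of the change; red circles are the 3 SCI libraries and blue squares the 3 sham libraries. The circles lie right of the squares for 41 genes, and they overlap for Dut and Ccne1.

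All 11 licensing genes were higher in SCI, with log2 changes of 0.69 to 3.24 and a median of 1.75. Mcm5 had 26.62, 32.20 and 21.70 FPKM in SCI libraries 1 to 3, against 1.82, 2.01 and 1.9 FPKM in sham libraries 1 to 3. It was 14.1-fold higher (log2 change 3.24, SE 0.14, adjusted p = 1.2e-05), the largest log2 change of the licensing genes. Mcm6 had the highest SCI mean of the role, with 36.60, 39.26 and 28.78 FPKM in SCI and 3.17, 3.82 and 5.16 FPKM in sham (8.61-fold, log2 change 2.84, SE 0.17, adjusted p = 3.1e-05). Mcm3 had 29.83, 36.93 and 26.67 FPKM in SCI and 2.60, 3.18 and 2.61 FPKM in sham (11.1-fold, log2 change 3.07, adjusted p = 1.2e-05). These subunits lie far apart between the groups, and the lowest SCI value is several times the highest sham value for each.

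The other 3 helicase subunits had smaller changes. Mcm2 had 14.92, 15.16 and 11.78 FPKM in SCI and 2.40, 2.38 and 3.02 FPKM in sham, 5.37-fold. Mcm7 had 24.86, 27.47 and 22.92 FPKM in SCI and 7.94, 6.61 and 6.55 FPKM in sham, 3.57-fold. Mcm4 had 32.61, 34.09 and 21.49 FPKM in SCI and 9.18, 8.27 and 10.20 FPKM in sham, 3.19-fold. Although the helicase is built from equal numbers of its 6 subunits, their RNA levels were uneven in sham and closer together after injury. The highest of Mcm2 to Mcm7 was 2.45, 2.59 and 2.44 times the lowest in the SCI libraries, against 5.04, 4.11 and 5.37 times in the sham libraries. Those ratios do not overlap between the groups.

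The loading factors were scarce in sham cord. Cdc6, the ATPase that loads the helicase together with the origin recognition complex, had 4.62, 5.94 and 3.30 FPKM in SCI and 0.35, 0.22 and 0.17 FPKM in sham (18.7-fold, log2 change 2.15, SE 0.20, adjusted p = 0.00016). Cdt1, which brings the helicase to Cdc6, had 10.13, 11.30 and 7.46 FPKM in SCI and 1.97, 2.12 and 2.26 FPKM in sham (4.55-fold, adjusted p = 0.00013). Its inhibitor Gmnn had 22.85, 22.40 and 17.96 FPKM in SCI and 7.07, 6.54 and 6.19 FPKM in sham (3.19-fold, adjusted p = 6.9e-05). Both rose, and Cdt1 was below its inhibitor in every library. Cdt1 over Gmnn was 0.443, 0.504 and 0.415 in SCI and 0.279, 0.324 and 0.365 in sham.

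The origin recognition complex did not move as a unit. Orc1, its ATPase subunit whose level changes over the cell cycle, had 1.82, 2.80 and 1.55 FPKM in SCI and 0.25, 0.43 and 0.59 FPKM in sham (4.86-fold, log2 change 1.09, SE 0.20, adjusted p = 0.0031). Orc6 had the smallest log2 change of the licensing genes, with 19.38, 20.58 and 17.43 FPKM in SCI and 11.76, 11.74 and 10.97 FPKM in sham (1.66-fold, log2 change 0.69, SE 0.09, adjusted p = 0.00075). Both were higher in all SCI libraries than in any sham library, which for Orc1 the filter fixed in advance. Of the 4 remaining subunits, which are not among the 43, Orc2 was slightly higher in SCI (log2 change 0.37, adjusted p = 0.0084), with 20.97, 22.87 and 22.28 FPKM in SCI and 18.38, 16.04 and 16.01 FPKM in sham. Orc3 had 14.45, 13.14 and 12.79 FPKM in SCI and 13.18, 13.71 and 14.71 FPKM in sham, which overlap (log2 change -0.04, adjusted p = 0.71; 0.05 under median-ratio scaling). Orc5 was lower, with 7.04, 6.12 and 7.95 FPKM in SCI and 10.13, 10.61 and 8.28 FPKM in sham (log2 change -0.41, adjusted p = 0.029). Orc4 was at the edge of the threshold, with 12.71, 11.22 and 11.51 FPKM in SCI and 13.75, 13.60 and 15.04 FPKM in sham (log2 change -0.24, adjusted p = 0.049). The call on Orc5 ended without SCI replicate 1 or 2 or sham replicate 1 or 2 (adjusted p 0.066 to 0.096), and that on Orc4 without any library other than SCI replicate 1 (adjusted p 0.078 to 0.16).

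**Figure D2:**
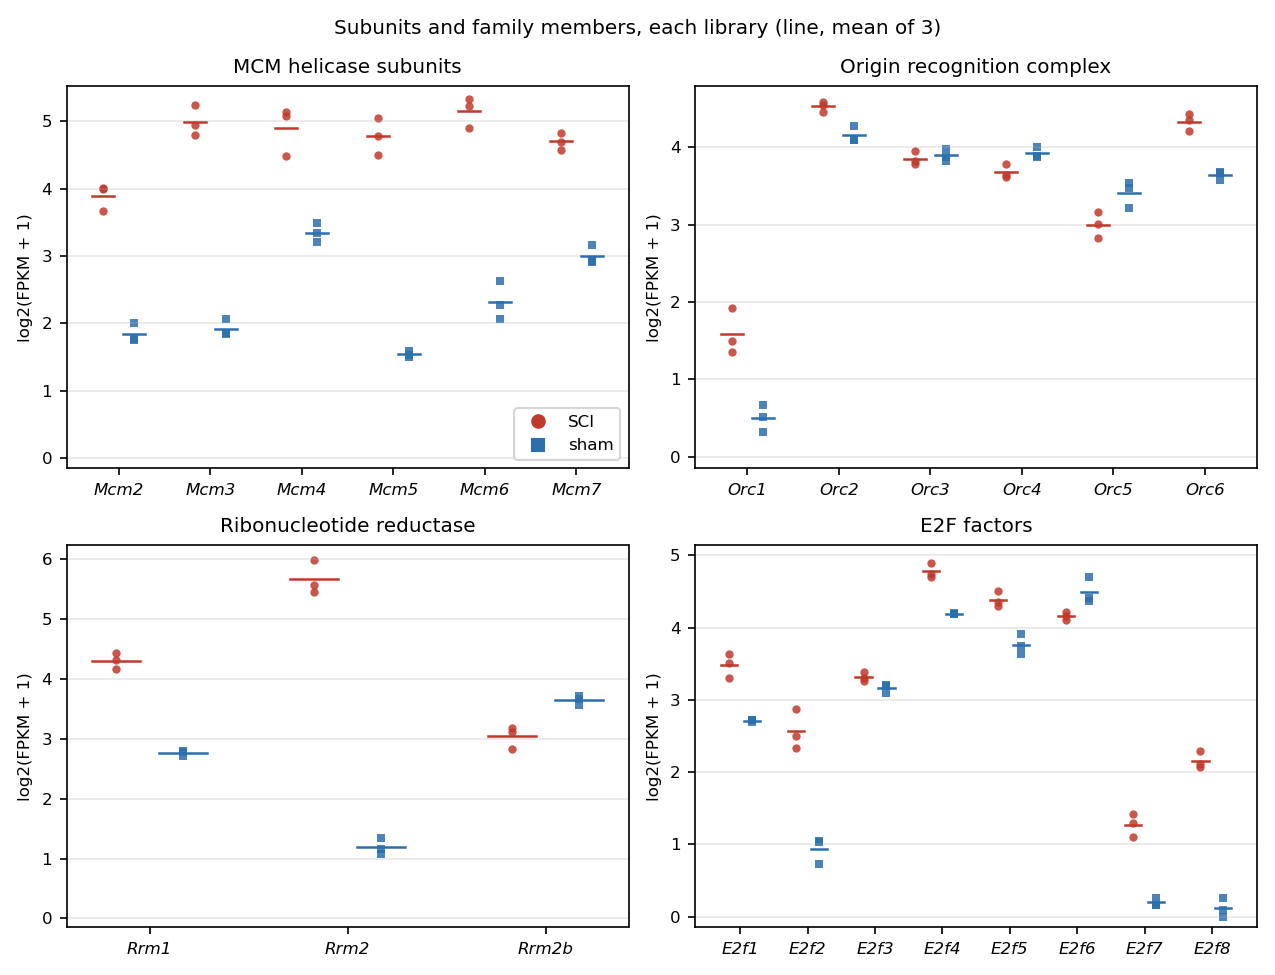
Level in every library, as log2(FPKM + 1), of the subunits of the Mcm2 to Mcm7 helicase, the origin recognition complex and ribonucleotide reductase and of the E2F factors; red circles are SCI, blue squares sham, and each short line is the mean of 3 libraries. The 6 helicase subunits sit closer together in SCI than in sham, while Orc3 and E2f3 overlap or nearly touch between the groups and Rrm2b lies lower in SCI.

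All 4 genes of helicase activation were higher, with a median log2 change of 2.12. Gins1, a subunit of the GINS complex that joins Cdc45 and the helicase into its active form, had 10.47, 10.34 and 8.73 FPKM in SCI and 0.68, 1.00 and 1.59 FPKM in sham (9.03-fold, log2 change 2.40, SE 0.17, adjusted p = 6.6e-05). Its partner Gins2 had 20.31, 20.01 and 18.48 FPKM in SCI and 2.17, 3.60 and 3.12 FPKM in sham (6.61-fold, log2 change 2.39, SE 0.15, adjusted p = 3.1e-05). The other GINS subunits were far less different: Gins4 had a mean of 33.4 ± 1.80 FPKM in SCI and 25.2 ± 2.38 FPKM in sham (SD, n = 3 each, adjusted p = 0.0082), and Gins3 had 4.32 ± 0.375 FPKM in SCI and 4.57 ± 0.595 FPKM in sham (adjusted p = 0.67). Within this complex of 4 subunits, then, the log2 changes in order were 2.40, 2.39, 0.40 and -0.06. Cdc45 had 8.62, 9.64 and 7.07 FPKM in SCI and 1.57, 1.48 and 1.83 FPKM in sham (5.19-fold, adjusted p = 6.7e-05). Mcm10, which helps to start unwinding, had the smallest log2 change of the role (1.51, SE 0.16, adjusted p = 0.0003). It had 3.48, 4.25 and 2.95 FPKM in SCI and 0.43, 0.64 and 0.71 FPKM in sham. By the ratio of mean FPKM it was 6.0-fold higher, more than Cdc45.

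The polymerases and the single-strand binding protein were higher in 6 of 6 cases. Their log2 changes were 0.27 to 1.32 with a median of 1.0. Pola1, the catalytic subunit of the polymerase that starts each new strand, had the largest, with 5.65, 6.90 and 5.32 FPKM in SCI and 1.80, 1.69 and 1.86 FPKM in sham (3.34-fold, log2 change 1.32, SE 0.12, adjusted p = 0.00019). The leading-strand polymerase Pole was 3.77-fold higher, the largest fold of the role (adjusted p = 0.00033). The lagging-strand polymerase Pold1 was 2.31-fold higher (adjusted p = 0.00023). Prim1, which makes the RNA primer, was 2.18-fold higher (adjusted p = 0.0011).

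Replication protein A coats single-stranded DNA and also serves repair. Its large subunit Rpa1 had the highest level and the smallest change of this role, with 42.02, 40.75 and 42.14 FPKM in SCI and 35.55, 33.41 and 34.26 FPKM in sham (1.21-fold, log2 change 0.27, SE 0.07, adjusted p = 0.012). Rpa2 had 20.89, 19.86 and 17.55 FPKM in SCI and 10.04, 9.41 and 9.08 FPKM in sham (2.04-fold, adjusted p = 0.00022). The remaining subunit, Rpa3, was 1.51-fold higher (adjusted p = 0.0026). The ranges do not overlap for any of the 3 subunits of the complex.

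All 5 clamp and clamp loader genes were higher. Pcna, the sliding clamp, was the most abundant of the 43 members in every library, with 147.99, 140.80 and 132.06 FPKM in SCI and 42.57, 42.89 and 46.94 FPKM in sham (3.18-fold, log2 change 1.65, SE 0.08, adjusted p = 1.3e-05). The processed copy Pcna-ps2 had 8.91, 7.10 and 7.22 FPKM in SCI and 2.56, 2.16 and 0.97 FPKM in sham, and reads of the 2 may be shared. The clamp loader subunits differed in size of change. Rfc4 was 3.14-fold higher (adjusted p = 4.3e-05), Rfc5 3.32-fold (adjusted p = 0.00015) and Rfc3 2.40-fold (adjusted p = 0.0015). Rfc2 had the smallest log2 change, with 19.21, 18.34 and 18.19 FPKM in SCI and 11.42, 10.31 and 11.13 FPKM in sham (1.70-fold, log2 change 0.71, SE 0.08, adjusted p = 0.00038). As with the helicase, the highest of Rfc2 to Rfc5 was closer to the lowest after injury, 2.08, 1.89 and 2.48 times in SCI and 4.44, 3.58 and 4.47 times in sham. Rfc2, Rfc4 and Rfc5 share their loci with expressed genes on the opposite strand, so these ratios are less certain, as explained below. The large subunit Rfc1, not among the 43, was 1.22-fold higher (adjusted p = 0.023).

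Both genes of Okazaki fragment joining were higher. Lig1, the ligase that seals the nicks, had 26.57, 26.92 and 21.60 FPKM in SCI and 9.23, 10.29 and 10.37 FPKM in sham (2.51-fold, log2 change 1.24, SE 0.11, adjusted p = 0.00013). Fen1, the nuclease that trims the flaps, had 29.04, 22.15 and 22.57 FPKM in SCI and 11.43, 14.42 and 12.40 FPKM in sham (1.93-fold, log2 change 0.89, SE 0.13, adjusted p = 0.0013). Neither gene's ranges overlap.

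**Figure D3:**
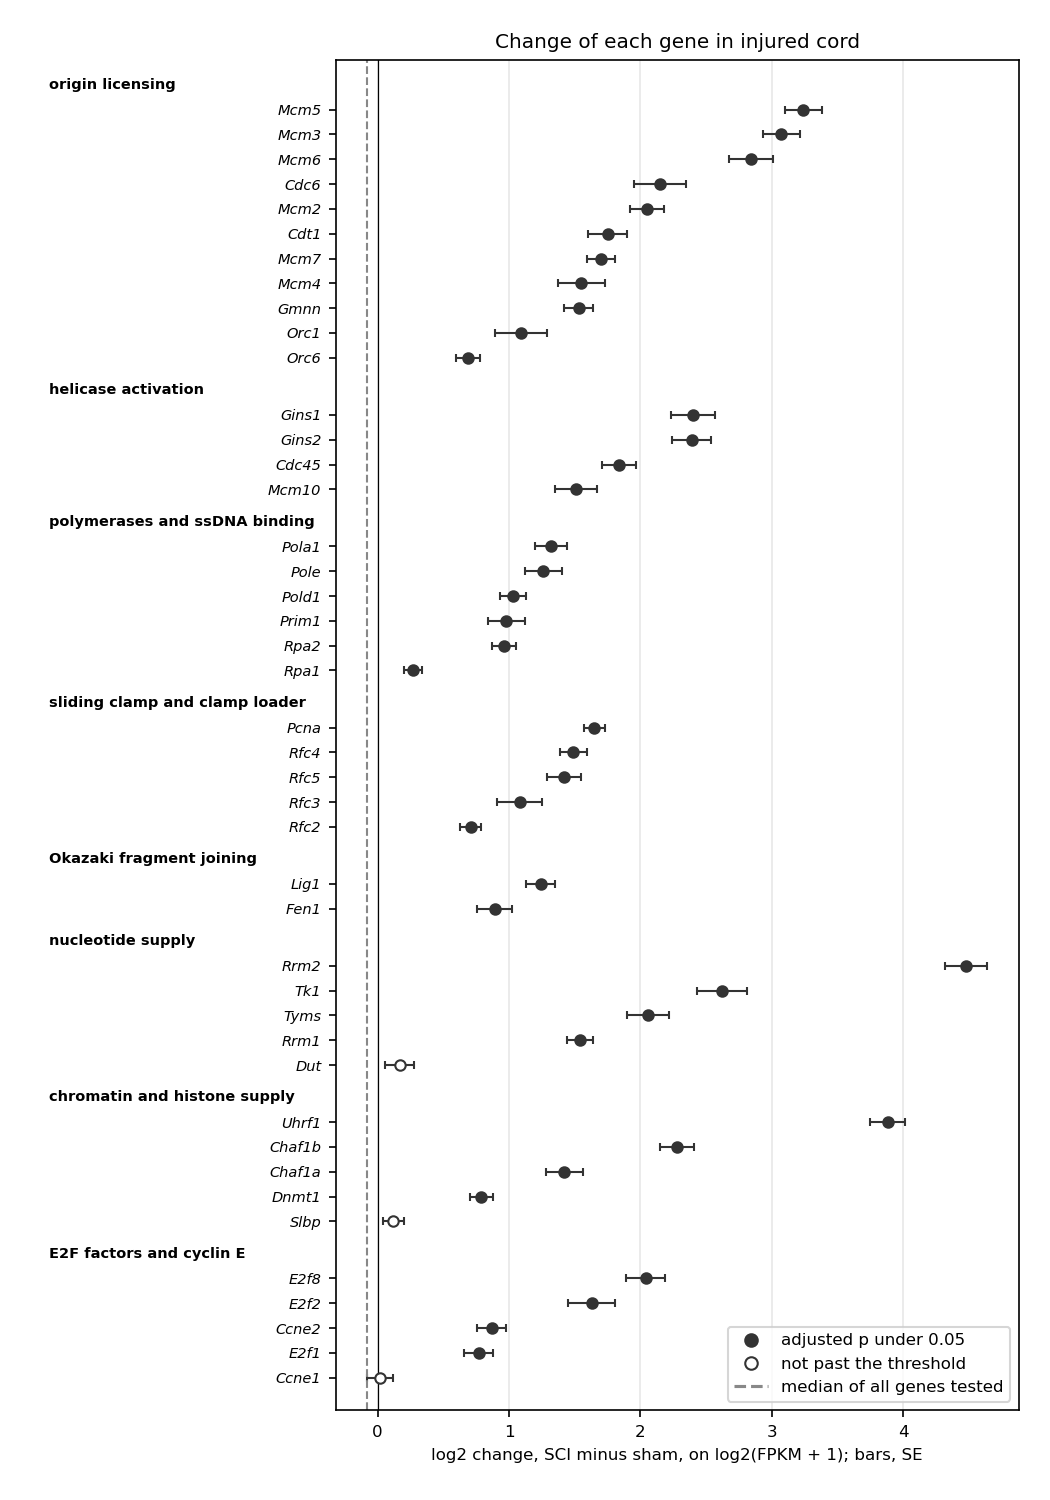
Change of each gene on the log2(FPKM + 1) scale, SCI minus sham, with limma's standard error as bars; filled points passed an adjusted p of 0.05 and open points did not. Rrm2 (4.48) and Uhrf1 (3.88) are farthest right, Dut, Slbp and Ccne1 are the open points near 0, and the dashed line is the median of all genes tested (-0.08).

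Nucleotide supply held the largest log2 change of all members and 1 of the 3 genes that did not pass. Rrm2, the small subunit of ribonucleotide reductase that is made in S phase, had 46.53, 62.66 and 42.89 FPKM in SCI and 1.23, 1.55 and 1.10 FPKM in sham (39.2-fold, log2 change 4.48, SE 0.16, adjusted p = 7.8e-06). The large subunit Rrm1 had 18.92, 20.54 and 16.99 FPKM in SCI and 5.57, 5.87 and 5.95 FPKM in sham (3.25-fold, adjusted p = 3.3e-05). Rrm2b, the small subunit known to be used outside S phase and for DNA repair and mitochondrial DNA, went the other way. It is not among the 43 and had 7.70, 6.11 and 8.03 FPKM in SCI and 11.76, 10.82 and 12.13 FPKM in sham (log2 change -0.61, SE 0.12, adjusted p = 0.0037).

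The 2 small subunits thus changed places in abundance. Rrm2 over Rrm2b was 6.04, 10.3 and 5.34 in the SCI libraries and 0.105, 0.143 and 0.0907 in the sham libraries. Rrm2 over Rrm1 was 2.46, 3.05 and 2.52 in SCI and 0.221, 0.264 and 0.185 in sham. In every sham library Rrm2b was the more abundant RNA, and in every SCI library Rrm2 was.

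Genes of thymidine synthesis and salvage were higher. Tyms, thymidylate synthase, had 6.72, 7.98 and 5.41 FPKM in SCI and 0.83, 0.63 and 1.06 FPKM in sham (7.98-fold, adjusted p = 9.1e-05). Tk1, the thymidine kinase of S phase, had 10.27, 12.59 and 8.44 FPKM in SCI and 1.26, 0.58 and 0.73 FPKM in sham (12.2-fold, adjusted p = 6.1e-05). Dut, the enzyme that clears dUTP and feeds thymidylate synthase, had 18.39, 22.66 and 17.63 FPKM in SCI and 18.52, 16.38 and 16.53 FPKM in sham. Those ranges overlap (log2 change 0.17, SE 0.11, adjusted p = 0.22).

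Among chromatin and histone genes 4 of 5 were higher. Uhrf1, which recruits the maintenance methyltransferase to newly copied DNA, had 24.04, 24.42 and 18.60 FPKM in SCI and 0.68, 0.51 and 0.55 FPKM in sham (38.5-fold, log2 change 3.88, SE 0.13, adjusted p = 7.8e-06). Dnmt1, that methyltransferase, had 31.15, 28.95 and 26.35 FPKM in SCI and 16.99, 15.00 and 16.55 FPKM in sham (1.78-fold, log2 change 0.79, SE 0.09, adjusted p = 0.00045). Uhrf1 over Dnmt1 was 0.772, 0.844 and 0.706 in SCI and 0.0400, 0.0340 and 0.0332 in sham, so the 2 RNAs were of similar abundance after injury and far apart without it.

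The subunits of chromatin assembly factor 1, which places histones behind the fork, also differed in size of change. Chaf1b had 5.81, 5.62 and 4.76 FPKM in SCI and 0.39, 0.25 and 0.31 FPKM in sham (17-fold, log2 change 2.28, adjusted p = 2.6e-05). Chaf1a had 8.64, 9.89 and 7.13 FPKM in SCI and 2.86, 2.39 and 2.43 FPKM in sham (3.34-fold, log2 change 1.42, adjusted p = 0.0002). Their partner Rbbp4, shared with other chromatin complexes and not among the 43, was 1.15-fold higher (adjusted p = 0.049). Slbp, which binds the stem loop of replication histone mRNAs, had 14.26, 14.03 and 13.12 FPKM in SCI and 12.79, 12.51 and 12.47 FPKM in sham. All SCI values lie above all sham values, but the change did not pass the test (log2 change 0.12, SE 0.08, adjusted p = 0.21). Replication histone mRNAs mostly lack a poly(A) tail and these libraries were poly(A) selected, so histone genes were not analysed here.

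Of the E2F factors and E-type cyclins, 4 of 5 were higher. E2f8, a repressor of late S phase, had 3.32, 3.90 and 3.21 FPKM in SCI and was listed at 0.00, 0.07 and 0.19 FPKM in sham (log2 change 2.04, SE 0.15, adjusted p = 6.5e-05). The activator E2f2 had 4.06, 6.30 and 4.67 FPKM in SCI and 1.06, 0.66 and 1.05 FPKM in sham (5.43-fold, adjusted p = 0.00033). The activator E2f1 had 10.40, 11.46 and 8.87 FPKM in SCI and 5.57, 5.62 and 5.48 FPKM in sham (1.84-fold, adjusted p = 0.001). None of these 3 overlaps between the groups, which for E2f8 the filter fixed in advance.

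The E-type cyclins, partners of Cdk2 at the start of S phase, parted. Ccne2 had 8.5, 9.75 and 7.92 FPKM in SCI and 4.57, 4.15 and 4.24 FPKM in sham (2.02-fold, log2 change 0.87, SE 0.11, adjusted p = 0.00056). Ccne1 had the highest mean of its role, with 13.97, 12.86 and 15.23 FPKM in SCI and 14.13, 14.75 and 12.48 FPKM in sham. Those ranges overlap, and the log2 change of 0.02 (SE 0.10, adjusted p = 0.86) turned to -0.02 under quantile normalization. Ccne2 over Ccne1 was 0.608, 0.758 and 0.520 in SCI and 0.323, 0.281 and 0.340 in sham, with no overlap.

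**Figure D4:**
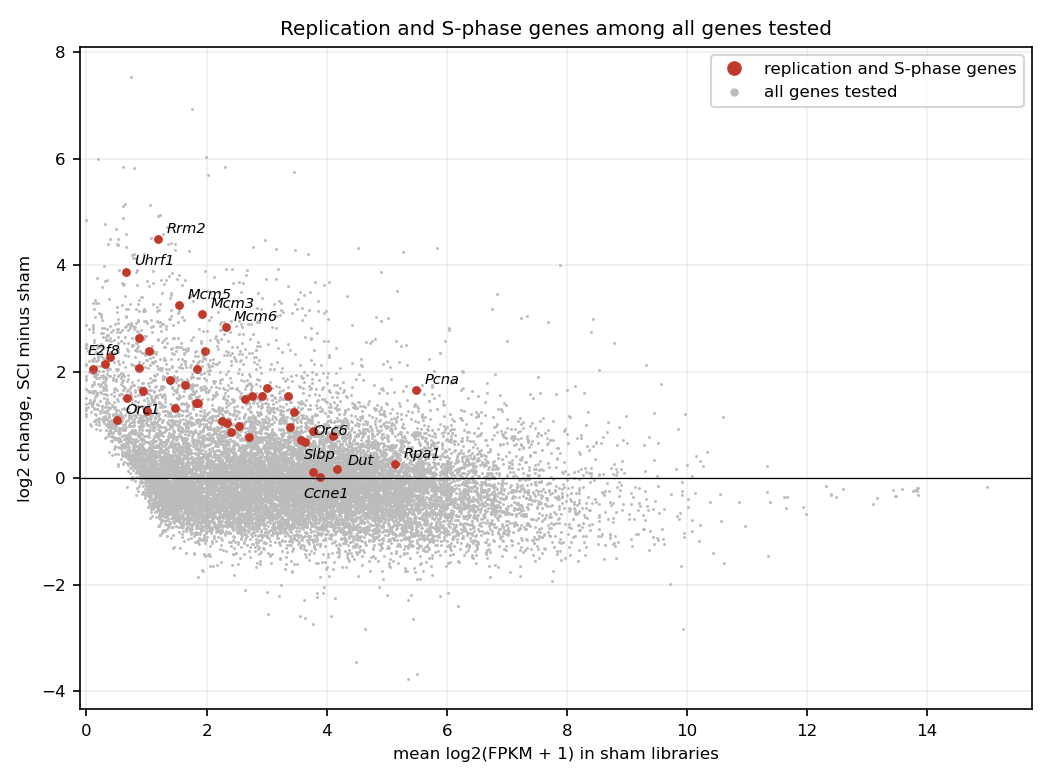
Each of the 17435 genes tested as a grey point and the 43 replication and S-phase genes in red, with the mean log2(FPKM + 1) of the sham libraries along the bottom and the log2 change, SCI minus sham, up the side. Rrm2 and Uhrf1, both low in sham, have the largest log2 changes of the members, and the 3 that did not pass and Rpa1 sit among the more abundant members near 0.

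The wider replication machinery was next read from a list of 46 further genes. Of these 34 were higher in SCI, 3 lower and 9 not past the threshold, with a median log2 change of 0.42, against 26.7% of all genes higher and 30.8% lower. Asf1b, a histone chaperone of dividing cells, had the largest change on the log2(FPKM + 1) scale, with 11.75, 16.65 and 11.23 FPKM in SCI and 1.00, 0.55 and 0.92 FPKM in sham (log2 change 2.95, adjusted p = 2.9e-05). Its paralog Asf1a had 8.59 ± 1.42 FPKM in SCI and 7.2 ± 0.967 FPKM in sham (SD, n = 3 each) and did not pass (adjusted p = 0.21). Clspn, the claspin adaptor of the replication checkpoint, had 6.59, 6.42 and 4.53 FPKM in SCI and 0.10, 0.16 and 0.28 FPKM in sham (log2 change 2.52, adjusted p = 4.3e-05). By the ratio of mean FPKM the order is another, with Clspn 32.5-fold, Ticrr 19.3-fold and Asf1b 16-fold higher.

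The kinase that fires licensed origins also showed an uneven pair. Its activator Dbf4 had 3.82, 5.27 and 3.15 FPKM in SCI and 0.49, 0.23 and 0.37 FPKM in sham (log2 change 1.88, adjusted p = 0.00023). The kinase itself, Cdc7, had 11.8 ± 0.375 FPKM in SCI and 11.8 ± 0.958 FPKM in sham (SD, n = 3 each; log2 change 0.01, adjusted p = 0.92). Pole2, an accessory subunit of the leading-strand polymerase, had 3.74, 5.01 and 3.07 FPKM in SCI and 0.26, 0.24 and 0.62 FPKM in sham (log2 change 1.84, adjusted p = 0.00031), while the accessory subunits Pole3 and Pole4 were 1.21-fold and 1.32-fold higher. Clspn, Dbf4, Pole2 and Ticrr were under 1 FPKM in every sham library and passed the filter through SCI alone. With a pseudocount of 0.1 the first 3 had log2 changes of 4.44, 3.18 and 3.15. Rrm2b, Orc5 and Orc4, given above, were the 3 lower genes.

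In the E2F and pocket protein network, 11 of 17 genes were higher, 4 lower and 2 not past the threshold, against 26.7% of all genes tested higher and 30.8% lower. The count of lower genes is thus no larger a share than over all genes. Ccna2, the S-phase and G2 cyclin, rose most, with 28.32, 33.81 and 26.59 FPKM in SCI and 1.28, 1.51 and 1.55 FPKM in sham (20.4-fold, log2 change 3.64, adjusted p = 7.8e-06). Its kinase Cdk2 had 9.25, 10.34 and 8.18 FPKM in SCI and 2.12, 1.64 and 1.73 FPKM in sham (5.06-fold, adjusted p = 4.8e-05). Tfdp1, the usual dimer partner of E2F factors, was 2.08-fold higher (adjusted p = 0.00016), and E2f7, the repressor most like E2f8, had 1.42 ± 0.266 FPKM in SCI and 0.147 ± 0.0462 FPKM in sham (SD, n = 3 each, adjusted p = 0.0014). E2f7 was the 1 gene of the 17 that passed the filter through SCI alone.

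The pocket proteins differed in direction. Rbl1 (p107), itself an E2F target, had 8.54 ± 1.82 FPKM in SCI and 1.70 ± 0.0681 FPKM in sham (SD, n = 3 each; log2 change 1.81, adjusted p = 1e-04), and Rb1 was 1.59-fold higher (adjusted p = 0.0023). Rbl2 (p130), the pocket protein of resting cells, had 16.40, 11.52 and 15.26 FPKM in SCI and 18.21, 19.14 and 19.17 FPKM in sham (log2 change -0.38, adjusted p = 0.038). Rbl1 over Rbl2 was 0.453, 0.924 and 0.494 in SCI and 0.0945, 0.0914 and 0.0845 in sham. Without SCI replicate 2 the log2 change of Rbl2 was -0.24, still past the threshold, and its call ended without any 1 sham library (adjusted p 0.076 to 0.10).

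The complex that joins Rbl2 or Rbl1 to E2F repressors in resting cells did not move as a unit. Its subunits Lin9 and Lin54 were 2.01-fold and 1.60-fold higher (adjusted p = 0.0044 and 0.0026), and Lin37 did not pass (log2 change -0.19, adjusted p = 0.17). Lin52 was lower, with 10.5 ± 0.930 FPKM in SCI and 16.4 ± 1.00 FPKM in sham (SD, n = 3 each; log2 change -0.60, adjusted p = 0.0016). E2f6 (log2 change -0.33, adjusted p = 0.03) and Tfdp2 (-0.27, adjusted p = 0.032) were lower by less. The call on E2f6 ended without SCI replicate 1 or sham replicate 2 (adjusted p = 0.085 and 0.08), and that on Tfdp2 without any 1 library (adjusted p 0.05 to 0.093). E2f4 and E2f5, the E2F factors of resting cells, were 1.53-fold and 1.58-fold higher (adjusted p = 0.00099 and 0.0019). E2f3 had 8.60, 9.44 and 8.87 FPKM in SCI and 7.56, 8.17 and 8.27 FPKM in sham and did not pass (log2 change 0.15, adjusted p = 0.18).

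Genes of G2 and mitosis were measured beside the replication genes. All 12 of that list were higher, against 26.7% of all genes tested, with a median log2 change of 3.50. Of the 12, 8 passed the filter through SCI alone, Mki67 and Top2a among them. The remaining genes, Bub1b, Aurka, Plk1 and Ccnb2, had log2 changes of 2.20, 2.47, 3.16 and 4.13. Mki67, the proliferation antigen Ki-67, had 28.13, 32.95 and 25.36 FPKM in SCI and 0.34, 0.43 and 0.54 FPKM in sham (log2 change 4.37, adjusted p = 7.8e-06). Top2a, the topoisomerase that untangles copied chromosomes, had 29.40, 38.94 and 27.29 FPKM in SCI and 0.41, 0.43 and 0.49 FPKM in sham (log2 change 4.49, adjusted p = 7.8e-06). The summed level of the 12 mitotic genes was 197, 263 and 180 FPKM in SCI and 8.22, 9.72 and 8.77 FPKM in sham, while that of the 43 replication genes was 845, 884 and 730 FPKM in SCI and 283, 279 and 286 FPKM in sham. The sums cover unlike numbers of genes, so their sizes cannot be set side by side. The members were also uneven in sham. Pcna and Rpa1 averaged 44.1 and 34.4 FPKM there, while Cdc6, Uhrf1, Chaf1b and E2f8 averaged 0.247, 0.58, 0.317 and 0.0867 FPKM.

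The injured libraries were not alike in these genes. Of the 43 members, 29 were highest in SCI replicate 2 and 12 in SCI replicate 1, and 39 were lowest in SCI replicate 3. Over all genes called higher, 60.2% were highest in SCI replicate 2, a share near that of the members. The peak in that library was thus not particular to these genes. Of all genes called higher, 53.2% were lowest in SCI replicate 3, a smaller share than of the members. SCI replicate 2 also held the most haemoglobin RNA. The 4 haemoglobin genes took 0.66, 6.16 and 0.21% of the FPKM in SCI replicates 1 to 3, and 0.11 to 0.13% in sham. The summed erythroid list, in which 3 of the 5 genes tested were called higher, was 4720, 45100 and 1530 FPKM in SCI and 805 to 929 FPKM in sham. Bone marrow progenitor markers summed to 4.37, 9.13 and 2.32 FPKM in SCI and 0.82 to 1.77 FPKM in sham, and the only one tested, Prtn3, did not pass (limma adjusted p = 0.073). The part of these cells in the level of the replication genes was not tested. Without SCI replicate 2, 40 members were again higher, as they were with mitochondrial and haemoglobin genes left out. Both settings keep other RNA of erythroid or marrow cells in the remaining libraries, so neither tests the part of these cells.

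Lists of immune and vessel markers summed to more in SCI as well. The microglia list summed to 610, 767 and 760 FPKM in SCI and 182 to 196 FPKM in sham, with 6 of 6 genes higher. The list of monocytes and macrophages summed to 1350, 2260 and 1800 FPKM in SCI and 111 to 155 FPKM in sham, with 7 of 7 higher, 3 of which passed the filter through SCI alone. Both lists were lowest in SCI replicate 1, where the replication genes were lowest in SCI replicate 3. Neutrophil markers summed to 274, 641 and 150 FPKM in SCI and 27.0 to 51.0 FPKM in sham, with 4 of the 5 genes tested higher and Ly6g, not tested, at or below 0.93 FPKM. Like the replication genes, they were highest in SCI replicate 2 and lowest in SCI replicate 3. Endothelial markers summed to 245, 226 and 207 FPKM in SCI and 80 to 90.4 FPKM in sham (4 of 4 higher), and fibroblast markers to 228, 476 and 256 FPKM in SCI and 48.2 to 109 FPKM in sham (5 of 5 higher). These 5 lists were above every sham library in all SCI libraries.

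Glial lists were mixed. Oligodendrocyte precursor markers summed to 86.7 to 107 FPKM in SCI and 70.3 to 86.6 FPKM in sham, with Pdgfra and Cspg4 higher and Olig2 and Gpr17 not past the threshold. Of the astrocyte list, which summed to 3140 to 3310 FPKM in SCI and 837 to 1130 FPKM in sham, 3 genes were higher and 2 lower. Gfap made up most of that sum, at 2726.64 to 2850.14 FPKM in SCI and 534.57 to 763.87 FPKM in sham. Aqp4 and Aldh1l1 were also higher, and Slc1a3 and Gja1 were the lower genes (log2 change -0.58 and -0.38). T and B cell markers summed to 1.94 to 5.73 FPKM in SCI and 1.16 to 2.15 FPKM in sham, and 4 of the 5 genes were too low to be tested. The other, Cd79b, was called higher and passed the filter through SCI alone, and Cd3e was at most 0.12 FPKM in SCI.

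The remaining lists were lower or varied between libraries. Neuron, astrocyte and oligodendrocyte markers were present in every library, as the labelled tissue requires. Neuron markers summed to 725 to 1140 FPKM in SCI and 2250 to 2650 FPKM in sham (5 of 5 lower), mature oligodendrocyte markers to 4070 to 4970 FPKM in SCI and 6780 to 7380 FPKM in sham (4 of 5 lower), and ependymal markers to 18.2 to 24.2 FPKM in SCI and 32.4 to 45.8 FPKM in sham (3 of 4 lower). Schwann cell markers summed to 129 to 335 FPKM in SCI and 537 to 1600 FPKM in sham, with 1 of 4 higher and 2 lower. Sensory ganglion markers were at 29.7, 15.7 and 103 FPKM in SCI and 82.1 to 107 FPKM in sham, and muscle markers at 44.9, 10.9 and 412 FPKM in SCI and 17.4 to 107 FPKM in sham. SCI replicate 3, lowest in most replication genes, was thus the highest SCI library in both of these lists. Prph made up most of the ganglion sum, at 74.5 FPKM in SCI replicate 3 and 81.04 to 105.81 FPKM in sham. Avil, Scn10a and Mrgprd had 17.3, 6.6 and 1.96 FPKM in SCI replicate 3. In every other library Avil was at most 0.5 FPKM and Scn10a and Mrgprd were at 0. Isl1 had 2.31 FPKM in SCI replicate 3 and 0.92 to 1.79 FPKM in sham. The part of each of these cell types in the level of the replication genes was not tested.

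Some members share their locus with another expressed gene on the opposite strand. These were Cdc45, Chaf1a, Rfc4, Rfc2, Fen1, Tk1, Ccne2, Rfc5, Mcm7, Orc6, Gins2 and Lig1. The libraries keep strand, but the strand setting of the authors' quantification is not given in the sources used here, so their levels are less certain. For Rfc2 the partner Lat2 averaged 16.4 FPKM in SCI and 1.28 FPKM in sham, for Fen1 the partner Tmem258 averaged 46.8 FPKM in SCI and 26.6 FPKM in sham, and for Rfc4 the partner Eif4a2 averaged 192 FPKM in SCI and 321 FPKM in sham. The means of Lat2 and Tmem258 were thus higher in SCI, as those of Rfc2 and Fen1 were, and that of Eif4a2 was higher in sham.

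**Figure D5:**
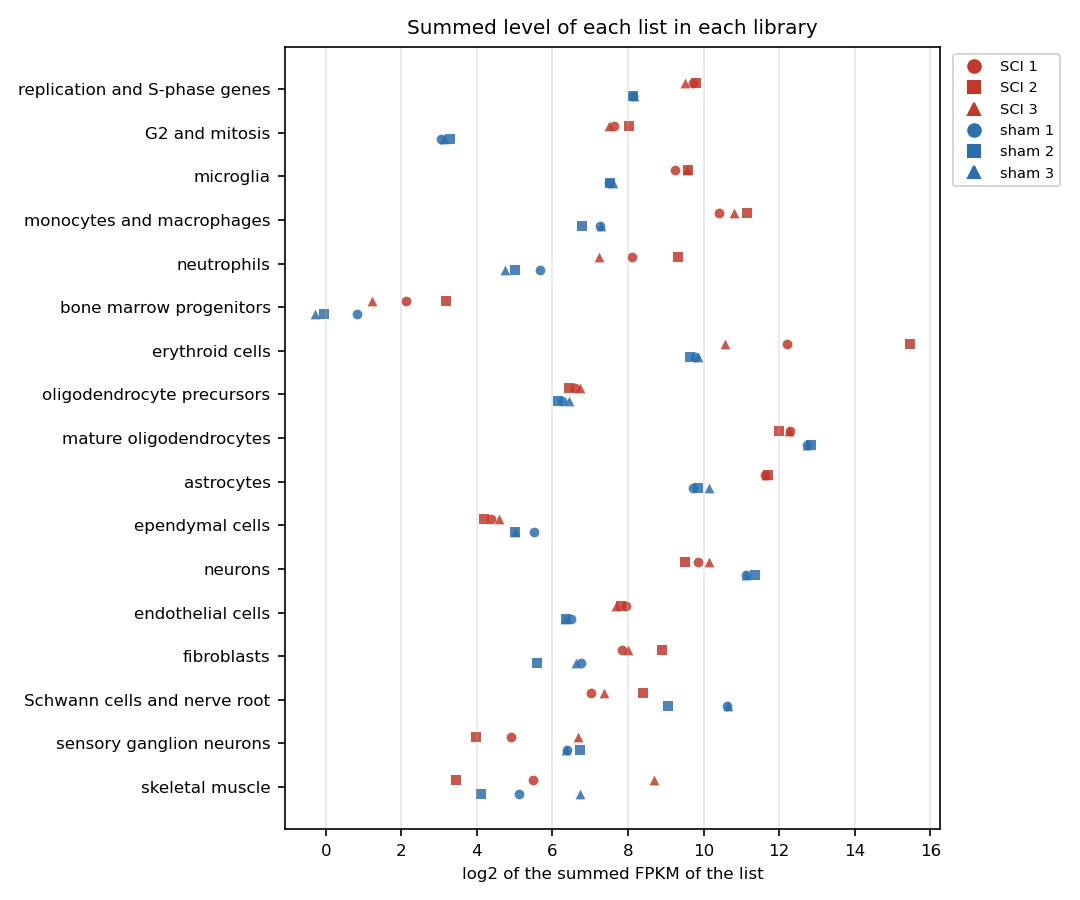
Summed FPKM of each gene list in each library on a log2 axis, SCI in red and sham in blue, with circles, squares and triangles for replicates 1, 2 and 3. The replication genes and the mitotic genes lie right of sham in all 3 SCI libraries, as do the microglia, macrophage, endothelial and fibroblast lists, and the erythroid list of SCI replicate 2 stands far to the right.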

How the data were processed

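Bulk RNA-seq of 3 SCI and 3 sham libraries was analysed from the FPKM that the authors deposited for every gene. The values carry 2 decimals. The submitters' processing notes list HISAT2 2.0.4, StringTie 1.3.4d, cutadapt 1.9 and UMI-tools, as well as edgeR and DESeq2, in roles not stated, and the build mm9. The coordinates in the files are those of GRCm38, since 33448 (91.6%) of 36502 identifiers held in common with GENCODE M21 matched it in chromosome, start and end. The protocols in the labels describe poly(A) selection, strand marking and adapters with molecular identifiers.

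FPKM hold no counts. Low values were searched for steps of 1 read, and the fullest bin held at most 3.7% of the low genes, so depth is unknown. FPKM summed to 716215 to 734791 per library, 37 mitochondrial genes took 19.22 to 24.12% of them, and 16774 to 17202 genes reached 1 FPKM. Pearson's r of libraries across genes was 0.971 to 0.987 within groups and 0.839 to 0.907 between them.

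The 17435 of 36629 genes that reached 1 FPKM in 3 or more of the 6 libraries were tested with limma 3.58.1 in R 4.3.3 (mean-variance trend, group as the only term) on log2(FPKM + 1), adjusted by Benjamini-Hochberg over all of them, with a threshold of 0.05. The script was tested on simulated data. Replicate numbers come from the titles and were not used as pairs.

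The members, lists and tests were chosen with earlier results of these data known. By rule, values per library were given for each role's member with the highest SCI mean, the largest and the smallest change and those not past the threshold, and for up to 4 rises and 4 falls of each further list, with Mki67 and Top2a. Values of other members and of Orc2, Orc3, Gins3, Gins4, Rpa3, Rfc1, Rbbp4, Asf1a, Cdc7, Pole3, Pole4, E2f3, E2f4, E2f5, E2f7, Lin9, Lin37, Lin54, Ticrr and Rb1 were added after they were seen, as were all ratios. Promoter letters were searched in RefSeq windows on GRCm38.p6. Alternatives were other pseudocounts, filters and scalings, no trend, a replicate block and each library left out.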

Additional observations from a re-analysis of the deposited data

How the results depend on the processing

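The count of 40 members higher in SCI was the same under every alternative run except the filter of 1 FPKM in at least 4 libraries, where 37 members were tested and 34 were higher; no member was lower under any. Among single members, the log2 change of Ccne1 (0.02) turned to -0.024 with quantile normalization and ranged from -0.042 to 0.079 with each library left out, below 0 without SCI replicate 3 or sham replicate 3; it passed the threshold in none of them. Dut and Slbp, not past the threshold, stayed so under every alternative. No pairing by replicate number was seen: deviations of same-numbered SCI and sham libraries from their group means had r of -0.008, -0.039 and 0.022. With 3 libraries per group, these values cannot exclude a pairing. With the number as a replicate block, 40 members were again higher. The following alternatives for the further lists were added after seeing the data. Of the other replication genes, 3 were lower in SCI, but 1 was with no filter, with median-ratio scaling and with the replicate block, and 1 to 2 were with each library left out. Of the E2F and pocket protein network 4 were lower, but 1 was with no filter, 2 with median-ratio scaling, 2 with the replicate block and 1 to 3 with each library left out. Rrm2b and Lin52 passed under all of these. Orc3 (log2 change -0.04) turned to 0.049 with median-ratio scaling and ranged from -0.089 to 0.0 with each library left out. Under the filter of at least 4 libraries only 4 genes of G2 and mitosis were tested, and 4 were higher. E2F letters in windows of 200 bases were in 36.1% of members and 1.9% of all genes. Depth is unknown, so levels under 1 FPKM carry no stated precision, and a quantity given as FPKM is a share of the library's RNA, not an amount per cord.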
